A study of Zea mays with 2 samples.

Results

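The peaks described here are the methylation peaks that 2 deposited lists place on the sequence named UNKNOWN, the unplaced part of the maize assembly. Every peak with that name was taken, whatever its length or score. They number 1652 of 353472 peaks in embryo and 1013 of 115621 peaks in endosperm, 2665 of 469093 peaks in all. The last of them ends at position 7134409, so the unplaced sequence was taken to be 7.13 Mb long. Chromosomes 1 to 10, with 351748 embryo and 114577 endosperm peaks, serve for comparison.

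The material was untreated embryo and endosperm of the maize inbred line B73, collected 14 days after self-pollination. One library was made from each tissue by MeDIP-seq, which sequences the DNA fragments captured by an anti-5-methylcytidine antibody, so a peak shows where methylated DNA was enriched and not the state of single cytosines. The number of kernels or ears behind each library is not given in the sources used here, and a peak list offers no marker by which the tissue labels could be checked. With 1 library per tissue there was no replicate check and no test between tissues, the deposited lists hold no read number per peak, and the 95% Wilson intervals below cover counting error only.

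The embryo of a maize kernel gives rise to the next plant, whereas the endosperm is a storage tissue that feeds it and takes more copies of the maternal than of the paternal genome. In flowering plants, cytosine methylation in the CG, CHG and CHH contexts keeps transposons and other repeats silent. In Arabidopsis the maternal genome of the endosperm loses part of it through the DNA glycosylase DEMETER. Unplaced sequence gathers assembly pieces that could not be anchored to a chromosome, commonly because they are rich in repeats. The pieces are joined one after another, so that position along it has no meaning as a map and neighbouring stretches may come from distant places in the genome. The assembly build behind the lists is not given in the sources used here, and no bases or annotation of it were used.

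Embryo had more peaks than endosperm on unplaced sequence, but by a smaller margin than on any chromosome. The ratio of embryo to endosperm peak number was 1.63 (interval 1.51 to 1.76) on unplaced sequence and 3.07 (3.05 to 3.09) on chromosomes 1 to 10 together. The chromosomes ran from 2.94 on chromosome 6 to 3.13 on chromosome 1. Both lists were denser on unplaced sequence, the endosperm list more so. Embryo had 231.6 peaks per Mb there against 170.9 on chromosomes 1 to 10, where single chromosomes had 167.0 to 174.9. Endosperm had 142.0 peaks per Mb against 55.7, with single chromosomes at 54.3 to 58.2.

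The covered length, which depends less than peak number on how a stretch is split into peaks, moved the same way. Peaks covered 919 kb in embryo and 662 kb in endosperm on unplaced sequence, a ratio of 1.39, against a ratio of 3.86 on chromosomes 1 to 10. Single chromosomes ran from 3.42 on chromosome 6 to 4.03 on chromosome 3. Embryo peaks covered 12.9% of the unplaced sequence against 5.43% of the chromosomes, and endosperm peaks covered 9.28% against 1.41%. Unplaced sequence thus held 0.467% of all embryo peaks and 0.815% of the embryo covered length, and 0.876% of all endosperm peaks and 2.23% of the endosperm covered length.

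Unplaced sequence lay outside the range of the 10 chromosomes in each of the 42 measures of density, length, score, spacing, overlap and pairing that were compared. An exact two-sided permutation test over the 11 sequences gave p = 0.0909 in all 42, which is the smallest p that 11 sequences allow, so that no measure could pass 0.05, and adjustment by Benjamini-Hochberg left it at 0.0909. Since chromosomes are much longer, they were also divided into 283 consecutive blocks of the unplaced length. The peak number ratio of these blocks ran from 1.83 to 3.63 and the covered length ratio from 1.48 to 5.04, all 283 above the unplaced values. One block had more embryo peaks per Mb than unplaced sequence and no block had more endosperm peaks per Mb.

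**Figure D1:**
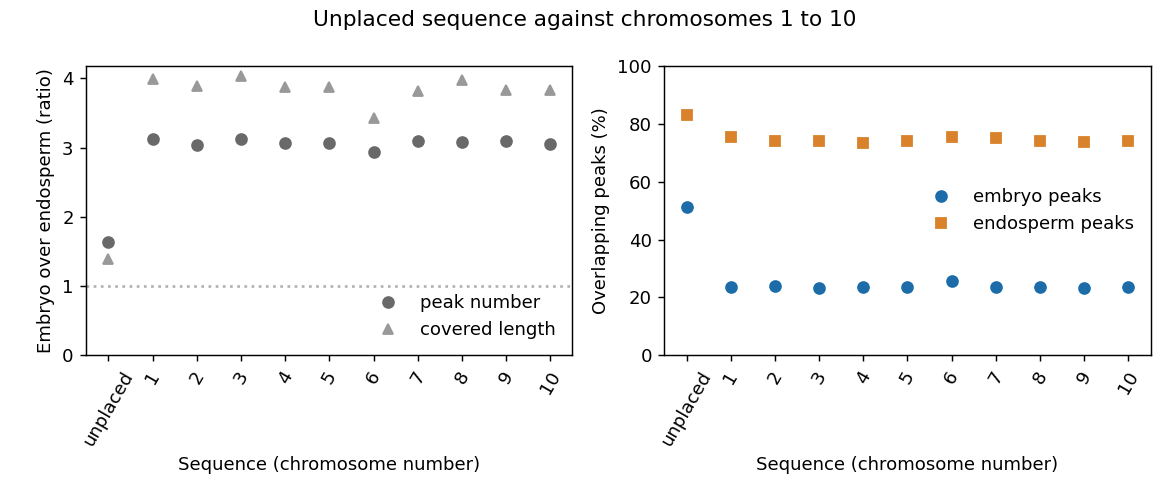
Ratio of embryo to endosperm peak number and of covered length (left, no unit) and the percentage of embryo and of endosperm peaks that share at least 1 bp with a peak of the other tissue (right), for unplaced sequence and for each of chromosomes 1 to 10, with 1 library per tissue. Unplaced sequence lies below every chromosome in both ratios (1.63 and 1.39) and above every chromosome in both percentages (51.3% and 82.9%).

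Peaks on unplaced sequence were longer, and the increase was larger in endosperm. Embryo peaks had a median length of 357.5 bp (interval of the median 344 to 373) against 272 bp on chromosomes 1 to 10. Endosperm peaks had a median of 402 bp (366 to 427) against 212 bp. On chromosomes the median endosperm peak was therefore the shorter of the 2 tissues, and on unplaced sequence it was the longer. The difference was clearest among long peaks. Of the embryo peaks, 165 (9.99%) reached 1000 bp on unplaced sequence against 1766 (0.502%) on chromosomes. Of the endosperm peaks, 185 (18.3%) reached it against 1048 (0.915%). No block of the unplaced length held more than 75 such embryo peaks or 110 such endosperm peaks. Peaks of at least 2000 bp numbered 56 in embryo and 48 in endosperm on unplaced sequence, more than on any whole chromosome, where there were 4 to 42 in embryo and 8 to 37 in endosperm.

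The diffScore, the authors' MACS value that grows as the p-value of a peak becomes smaller (10 times the negative log10 of p), was also higher on unplaced sequence. It was compared within each tissue, since its scale depends on the library. The median was 104.25 against 87.8 on chromosomes 1 to 10 in embryo, and 102.25 against 67.3 in endosperm. At the upper end the gap widened. A diffScore of at least 500 was reached by 115 embryo peaks (6.96%) on unplaced sequence against 0.828% of those on chromosomes, and by 94 endosperm peaks (9.28%) against 0.5001%. At 1000 or more there were 45 embryo peaks (2.72%) against 524 on all 10 chromosomes (0.149%), and 25 endosperm peaks (2.47%) against 109 (0.0951%). No single chromosome had as many as 25 such endosperm peaks, the range being 5 to 22, while 2 chromosomes had more than 45 such embryo peaks, up to 163 on chromosome 6. Among the blocks of the unplaced length, 1 had a larger share of peaks of at least 500 in embryo, 8.44%, and 1 in endosperm, 12.1%. When only peaks with a diffScore of at least 100 or 200 were kept in both lists, the embryo to endosperm ratio was 1.66 and 1.44 on unplaced sequence, against 6.83 and 11 on chromosomes. The same minimum was applied to both libraries, so the size of these ratios also depends on the score scale of each.

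**Figure D2:**
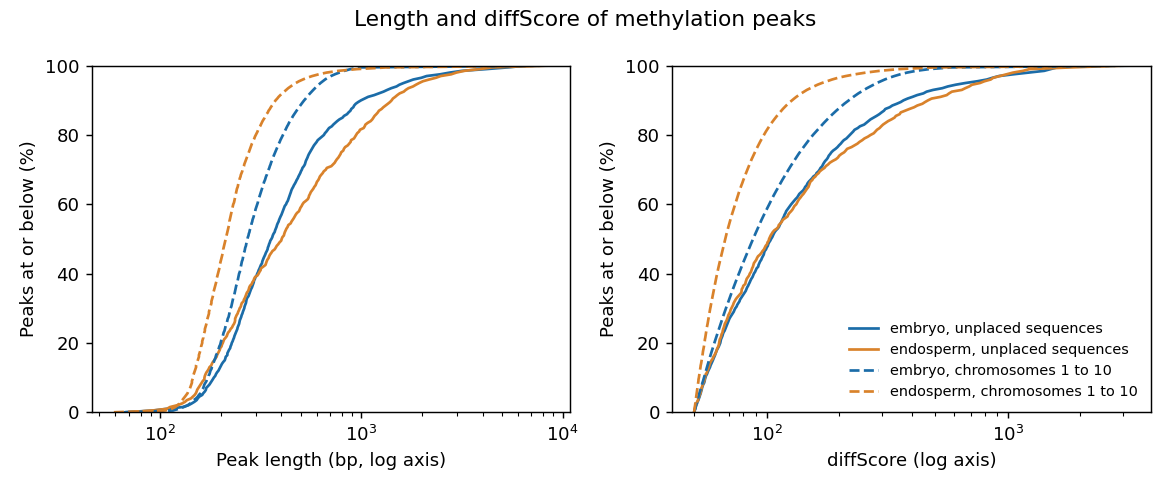
Cumulative share of peaks (y axis) by peak length in bp and by diffScore (x axes, both log scales), for embryo and endosperm on unplaced sequence and on chromosomes 1 to 10. The unplaced curves lie to the right of the chromosome curves of the same tissue over most of their range, with 9.99% of embryo and 18.3% of endosperm peaks at 1000 bp or more on unplaced sequence against 0.502% and 0.915% on chromosomes.

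Neighbouring peaks stood closer together. The median distance between the centres of neighbouring embryo peaks was 2755 bp (2511 to 3003) on unplaced sequence against 3611 bp on chromosomes 1 to 10. In endosperm it was 3157 bp (2661 to 3552) against 11093 bp. The median spacings of the 2 tissues were thus closer to each other on unplaced sequence than on chromosomes, although the mean spacings there were 4320 bp in embryo and 7003 bp in endosperm, and the medians in the sparse stretches described further on were 3478.5 and 12416 bp. The longest stretch without an embryo peak was 98.4 kb, from 3667158 to 3765542, and held 1 endosperm peak. The longest stretch without an endosperm peak was 105.5 kb, from 3659801 to 3765323, and held 3 embryo peaks. These 2 gaps are almost the same place. By contrast, the next longest endosperm gaps, 84.5 kb from 2861384 to 2945849 and 79.8 kb from 3459936 to 3539716, held 14 and 11 embryo peaks.

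More peaks overlapped between tissues. On unplaced sequence 847 embryo peaks (51.3%, interval 48.9 to 53.7) shared at least 1 bp with an endosperm peak, against 23.7% on chromosomes 1 to 10 and 23.8% over the whole list. Single chromosomes ran from 23.2% to 25.5% and no block exceeded 49.3%. In the other direction 840 endosperm peaks (82.9%, 80.5 to 85.1) shared at least 1 bp with an embryo peak, against 74.3% on chromosomes and 74.3% over the whole list. Chromosomes ran from 73.2% to 75.4%, and 3 of the 283 blocks were above the unplaced value. The larger covered share and the longer peaks of unplaced sequence stand beside these percentages, and their part in the overlap was not tested. With only peaks of a diffScore of at least 200 in both lists, the endosperm value turned, to 81.0% on unplaced sequence against 86.5% on chromosomes.

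The overlap grew with diffScore, and in embryo it was higher than on chromosomes in each score class. For embryo peaks with a diffScore of 50 to 100, 28.9% overlapped on unplaced sequence against 12.9% on chromosomes. From 100 to 200 it was 58.8% against 30.0%, and from 200 to 500 it was 82.6% against 57.7%. All 115 embryo peaks of at least 500 overlapped an endosperm peak (interval 96.8% to 100%), against 95.8%. Endosperm peaks differed little by class, with 70% against 69.8% below 100, 91.2% against 92.8% from 100 to 200, 98.2% against 98.0% from 200 to 500, and all 94 against 99.7% from 500. Within each endosperm class the unplaced interval held the chromosome value, so that by class no difference was detectable at this number of peaks.

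When overlapping peaks of both lists were joined into regions, unplaced sequence gave 1756 regions. Both tissues contributed to 778 (44.3%) of them, 805 (45.8%) held embryo peaks alone and 173 (9.85%) held endosperm peaks alone. On chromosomes 21.6% held both, 70.7% embryo peaks alone and 7.77% endosperm peaks alone. The shift was therefore mainly between embryo-only regions and shared regions. Shared regions of 3 or more peaks made up 13.9% of the shared regions (108) on unplaced sequence against 5.16% on chromosomes.

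Peaks without an overlap lay nearer to a peak of the other tissue than on chromosomes, where both lists were sparser. The part of peak density in this was not tested. Embryo peaks that overlapped no endosperm peak lay a median of 4430 bp from the nearest one, against 6320 bp on chromosomes, and 20.9% lay within 1000 bp, against 13.5%. For endosperm peaks that overlapped no embryo peak the median was 722 bp against 1332 bp, and 58.4% lay within 1000 bp, against 42.7%. The highest scoring embryo peak without an overlap spanned 6625888 to 6626457 (570 bp, diffScore 436.07), 8314 bp from the nearest endosperm peak. The highest scoring endosperm peak without an overlap spanned 922391 to 922621 (231 bp, diffScore 228.77), only 168 bp from an embryo peak. The next 4 of that kind, in order of score, lay 5584, 3435, 2494 and 27601 bp away in embryo, and 69, 46, 5364 and 1248 bp away in endosperm.

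In 670 regions 1 embryo peak met 1 endosperm peak, and these pairs were more alike on unplaced sequence. Since the diffScore scales with each library, its order within a pair is read only against that of the same 2 libraries on chromosomes. The endosperm peak had the higher diffScore in 258 pairs (38.5%, 34.9 to 42.2) against 15.4% on chromosomes and 15.6% over the whole lists. It was the longer one in 316 pairs (47.2%, 43.4 to 50.9) against 14.7% on chromosomes and 15% over the whole lists. Both edges fell within 10 bp of each other in 67 pairs (10%, 7.95 to 12.5) against 2.93% on chromosomes and 2.99% over the whole lists. Both peaks reached 1000 bp in 88 pairs (13.1%), against 263 pairs (0.339%) on all chromosomes. The median log2 ratio of embryo to endosperm diffScore was 0.27 on unplaced sequence and 0.80 on chromosomes. As a description across pairs, which are not independent replicates, Spearman's rho between the tissues was 0.63 for diffScore and 0.82 for length on unplaced sequence, and 0.36 and 0.50 on chromosomes.

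Some pairs matched almost base for base. The embryo peak with the highest diffScore, 2115.20, spanned 4299592 to 4301229, and the endosperm peak over it, with a diffScore of 2288.76, spanned 4299594 to 4301231. Both were 1638 bp long. A longer example was the embryo peak of 5534 bp from 4374876 to 4380409 (diffScore 1542.77), which met an endosperm peak of 5533 bp from 4374881 to 4380413 (2076.32). Other pairs matched in position and differed in score. The endosperm peak with the highest diffScore, 2929.98, spanned 1853886 to 1856102 and met an embryo peak of 1506.27 from 1853902 to 1856041. The next endosperm peak, 2863.91 from 4353759 to 4357858, met an embryo peak of almost the same edges, 4353753 to 4357861, with a diffScore of 868.51. The embryo peak from 1562836 to 1564541 had 2006.55 and its endosperm partner 853.05. That is the usual order on chromosomes, where the endosperm peak had the higher diffScore in 15.4% of pairs. Raw scores of single pairs lie on the scale of each library, so their difference is not read as one between tissues.

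The single longest peak of each tissue had a moderate diffScore, although median length increased with each score class. The longest endosperm peak, 8175 bp from 1927643 to 1935817, had a diffScore of 246.60 and lay over 2 embryo peaks that together spanned 1927619 to 1935818. The longest embryo peak, 6563 bp from 1957434 to 1963996, had a diffScore of 205.54 and overlapped no endosperm peak, the nearest being 7486 bp away. Both belong to the stretch from 1.5 to 2.0 Mb, which is described below.

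Peaks were then counted along the sequence in windows of 100 kb, by peak centre. All 72 unplaced windows held at least 5 peaks. In 7 of them (9.72%, 4.79 to 18.7) endosperm peaks were at least as many as embryo peaks, against 58 of 20554 windows on chromosomes 1 to 10 (0.282%) and 0.315% of all windows. Numbers were equal in 3 of the 7 and endosperm had more in 4. Just outside the rule were 4 further windows with 1 endosperm peak fewer than embryo peaks, 3 of them with 24 embryo and 23 endosperm peaks and 1 with 15 and 14. The call depended on window size, with 21 of 140 windows at 50 kb and 0 of 36 at 200 kb. Windows with at least 20 endosperm peaks were also frequent, 23 of 72 (31.9%) against 84 on chromosomes (0.408%).

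**Figure D3:**
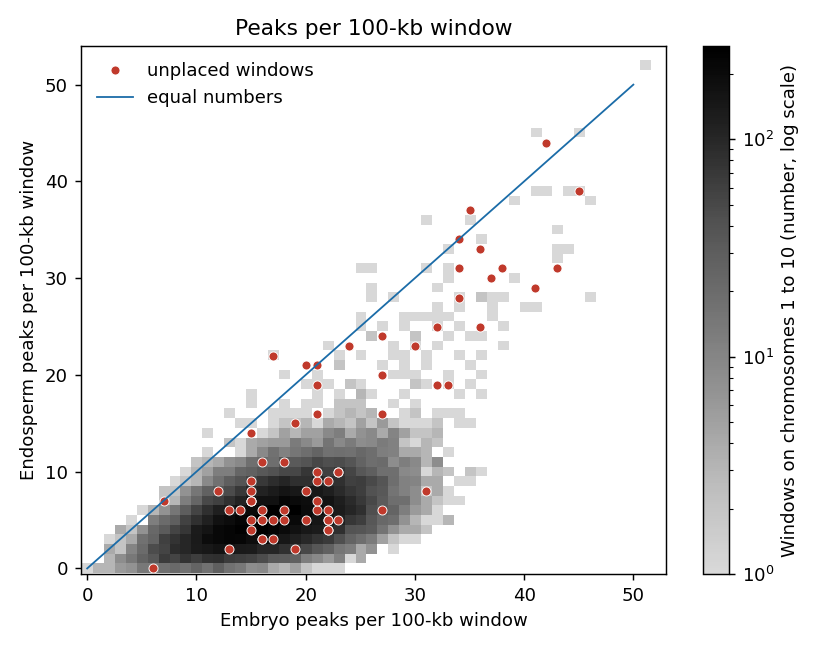
Embryo peaks (x axis) and endosperm peaks (y axis) in each 100-kb window, with the 72 unplaced windows as points, chromosome windows as grey squares (number of windows on a log scale) and a line where both numbers are equal. In all, 7 unplaced points lie on or above the line, and 23 of the 72 hold at least 20 endosperm peaks.

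The 7 windows did not touch each other, so each is a stretch of its own. The stretch from 1.5 to 1.6 Mb was thin, with 7 embryo and 7 endosperm peaks, while that from 1.8 to 1.9 Mb had 20 and 21. The densest was 2.1 to 2.2 Mb with 42 embryo and 44 endosperm peaks, followed by 4.1 to 4.2 Mb with 35 and 37 and 2.4 to 2.5 Mb with 34 and 34. The largest surplus of endosperm peaks was at 3.7 to 3.8 Mb, with 17 embryo and 22 endosperm peaks, in a window that also holds most of the shared gap and whose peaks were short, with medians of 268 bp in embryo and 265.5 bp in endosperm. At 4.3 to 4.4 Mb there were only 21 and 21 peaks, but they were long, with medians of 1638 bp in embryo and 2167 bp in endosperm, and covered 37.6% and 45.3% of the window. The window numbers of single stretches are small, and the interval of the ratio held 1 in each of the 7, from 0.77 (0.41 to 1.44) at 3.7 to 3.8 Mb upwards.

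Together the 7 stretches held 176 embryo and 186 endosperm peaks, and 87.5% of the embryo and 81.2% of the endosperm peaks overlapped. The other 65 windows held 1476 embryo and 827 endosperm peaks, a ratio of 1.78, with overlaps of 46.95% and 83.3%. The endosperm peak had the higher diffScore in 64.2% of the 1 to 1 pairs of the stretches, against 33.9% in the other windows, and both edges fell within 10 bp in 21.7% against 7.76%. The stretches were chosen on peak numbers, so these values describe them without a test. Without them the unplaced ratio was still below every chromosome.

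The windows fell into 8 consecutive zones of high and low endosperm density. The zone borders were drawn after the window values had been seen, and the values below are given as a description. The first zone, 0 to 1.5 Mb, held 448 embryo and 292 endosperm peaks, a ratio of 1.53. The zone from 1.5 to 2.0 Mb held 87 and 75 (1.16), that from 2.0 to 2.6 Mb held 226 and 206 (1.10), and that from 3.7 to 4.6 Mb held 227 and 211 (1.08). A shorter zone from 5.7 to 6.1 Mb held 77 and 49 (1.57). Between and after them lay 3 sparse zones, with 175 embryo and 58 endosperm peaks from 2.6 to 3.7 Mb (3.02), 225 and 55 from 4.6 to 5.7 Mb (4.09), and 187 and 67 from 6.1 Mb to the end (2.79).

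At the 5 borders between dense and sparse zones the numbers changed from one window to the next. The window from 2.5 to 2.6 Mb held 37 embryo and 30 endosperm peaks and the next one 16 and 5. The window from 4.5 to 4.6 Mb held 24 and 23 peaks and the next one 16 and 3. At 3.7 Mb, 15 embryo and 7 endosperm peaks were followed by 17 and 22. At the start of the short zone, 22 and 4 peaks were followed by 21 and 19, and at its end 18 and 11 were followed by 19 and 2. The borders were placed by endosperm density, so a change in the endosperm number there is part of how they were drawn. The dense zones were not even inside, and the window from 0.7 to 0.8 Mb in the first zone held 17 embryo and 3 endosperm peaks.

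**Figure D4:**
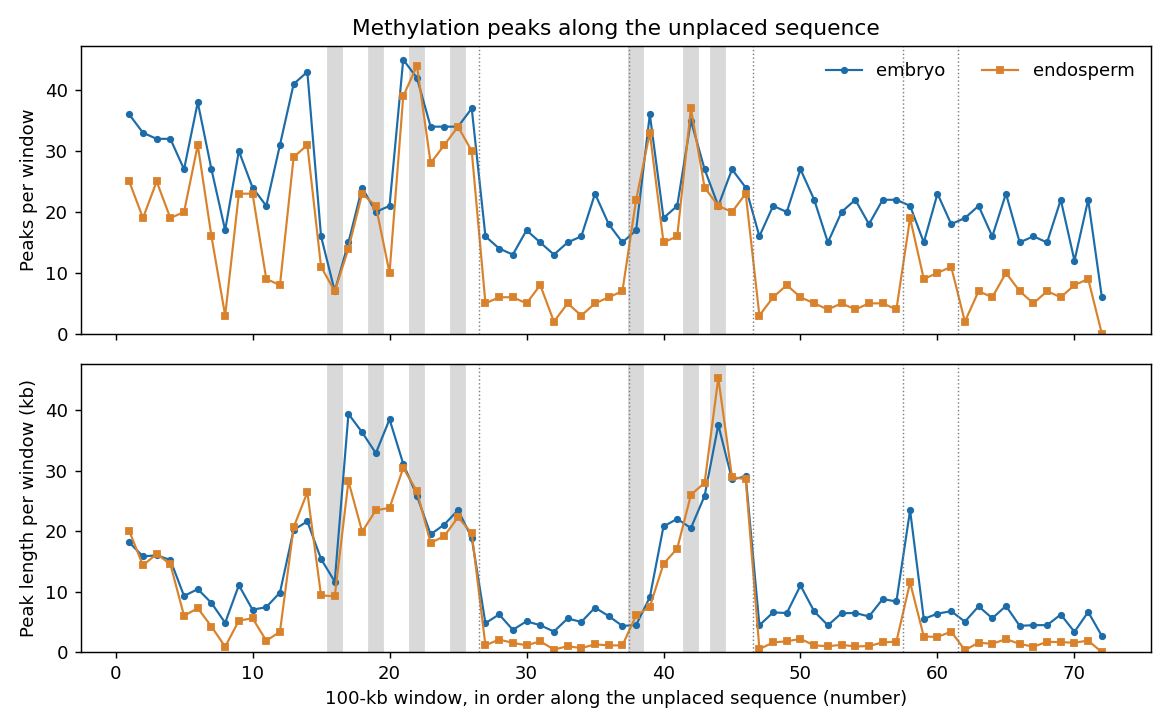
Embryo and endosperm peaks per 100-kb window (upper panel, number) and their summed length (lower panel, kb) along the unplaced sequence (x axis, window number), with the 7 windows that hold at least as many endosperm as embryo peaks shaded and dotted lines at borders between zones of high and low endosperm density. Endosperm numbers have a median of 21 in the 39 windows of the denser zones and of 5 in the 33 windows of the sparser zones, while embryo numbers have medians of 27 and 17.

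The 33 windows of the sparser zones were nearer to the chromosomes than the denser zones were, in each measure given here. They held 587 embryo and 180 endosperm peaks, a ratio of 3.26 (2.76 to 3.85) against 3.07 on chromosomes. The overlap was 21.5% of embryo and 74.4% of endosperm peaks, against 23.7% and 74.3%. Median lengths were 271 bp in embryo and 209 bp in endosperm against 272 and 212 bp, and median diffScores were 87.4 and 65.4 against 87.8 and 67.3. Peaks per Mb were 181.5 in embryo and 55.7 in endosperm, against 170.9 and 55.7. Peaks covered 5.87% of these zones in embryo and 1.33% in endosperm, against 5.43% and 1.41%. These zones were drawn for low endosperm density, so their endosperm peaks per Mb and endosperm covered share depend on that choice and are not independent agreement. The covered length ratio was 4.42 against 3.86, above the highest single chromosome at 4.03. The peak number ratio, embryo peaks per Mb, embryo overlap, embryo covered share and endosperm diffScore also lay outside the range of single chromosomes. The zone from 4.6 to 5.7 Mb had a peak number ratio of 4.09. Its embryo overlap was 16.4% (37 of 225 peaks), and the lowest chromosome block had 17.8%. The blocks have the length of the whole unplaced sequence, whereas this zone is 1.1 Mb long and was drawn for low endosperm density. These values are therefore not compared on equal terms, and their difference was not tested.

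The larger departures from the chromosomes lay in the 39 windows of the denser zones. These held 1065 embryo and 833 endosperm peaks, a ratio of 1.28 (1.17 to 1.4), and 67.7% of the embryo and 84.8% of the endosperm peaks overlapped. The zones were drawn by endosperm density, so the ratios, the overlap and the endosperm density and covered share in both kinds of zone depend on that choice. No chromosome was divided in the same way for comparison. Median lengths were 430 bp in embryo and 494 bp in endosperm, and median diffScores 119.8 and 123.5. Of the peaks with a diffScore of at least 500, 113 of 115 in embryo and all 94 in endosperm were there. Of those of at least 1000 bp, 161 of 165 in embryo and all 185 in endosperm were there. The average of unplaced sequence hides a difference between its sparser zones, 3.23 Mb, and its denser zones, 3.9 Mb. The denser zone from 5.7 to 6.1 Mb was mixed, with a ratio of 1.57 and 50.6% of embryo peaks overlapping. Its scores were near those of the chromosomes, with median diffScores of 94.6 in embryo and 70.4 in endosperm. There the endosperm peak had the higher diffScore in 12.9% of 31 pairs.

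The denser zones differed among themselves in the length of their peaks and in how often the endosperm peak of a pair had the higher diffScore. On chromosomes it had the higher one in 15.4% of pairs. The borders at 1.5 and 2.0 Mb lie between neighbouring denser zones. They too were drawn after the values had been seen, so the differences across them may depend on that choice. From 1.5 to 2.0 Mb, embryo peaks were longest, with medians of 1330 bp in embryo and 1125 bp in endosperm, and covered 31.7% of the zone against 20.9% in endosperm. There the endosperm peak had the higher diffScore in 17.4% of 46 pairs, near the chromosome value. From 2.0 to 2.6 Mb, where peaks were densest, with 376.7 embryo and 343.3 endosperm peaks per Mb, the endosperm peak had the higher diffScore in 65.1% of 129 pairs and both edges matched within 10 bp in 18.6%. From 3.7 to 4.6 Mb it had the higher diffScore in 56.3% of 142 pairs, and 12 embryo and 15 endosperm peaks reached a diffScore of 1000. That zone also held 41 of the 88 pairs in which both peaks reached 1000 bp, and the zone from 1.5 to 2.0 Mb held 28.

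Among the zones of unplaced sequence, the first stood apart by a class of embryo peaks of similar length. Of the 45 embryo peaks with a diffScore of at least 1000, 29 were 700 to 1100 bp long and 27 of those lay in the first zone, 19 in its first 350 kb and 8 between 1.2 and 1.4 Mb. The length bounds were set after the values had been seen. The first zone held 29 embryo peaks of that score in all, and the bounds leave out those of 657 and 558 bp, so the narrow range of lengths depends partly on the bounds. These 27 peaks were 797 to 1017 bp long, with a median of 891 bp, and their diffScores ran from 1114.77 to 2011.79, with a median of 1456. They were single peaks set apart from each other, with a median distance of 16.3 kb and a smallest one of 6.68 kb between neighbouring centres. The highest of them spanned 115057 to 115946 (890 bp), and others spanned 56840 to 57716 (877 bp, diffScore 1760.34) and 17258 to 18054 (797 bp, diffScore 1654.07).

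Each of the 27 had an endosperm peak over it, which was mostly longer. The endosperm partners had diffScores of 415 to 1229, with a median of 675. The 27 were picked on their embryo diffScore and on an embryo length of at most 1100 bp, with no such bound on the partner. The order of the scores and of the lengths within these pairs is therefore not a result. Their lengths ran from 790 to 1970 bp, with a median of 1152 bp. The endosperm peak was the longer one in 24 of the 27, and in 7 it reached 1800 bp. For example, the embryo peak from 87927 to 88943 (1017 bp) lay inside an endosperm peak from 87507 to 89476 (1970 bp). Of the 25 endosperm peaks that reached a diffScore of 1000, only 1 lay in the first zone. Those 25 had a median length of 1768 bp, and like the 45 embryo peaks they all overlapped a peak of the other tissue.

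**Figure D5:**
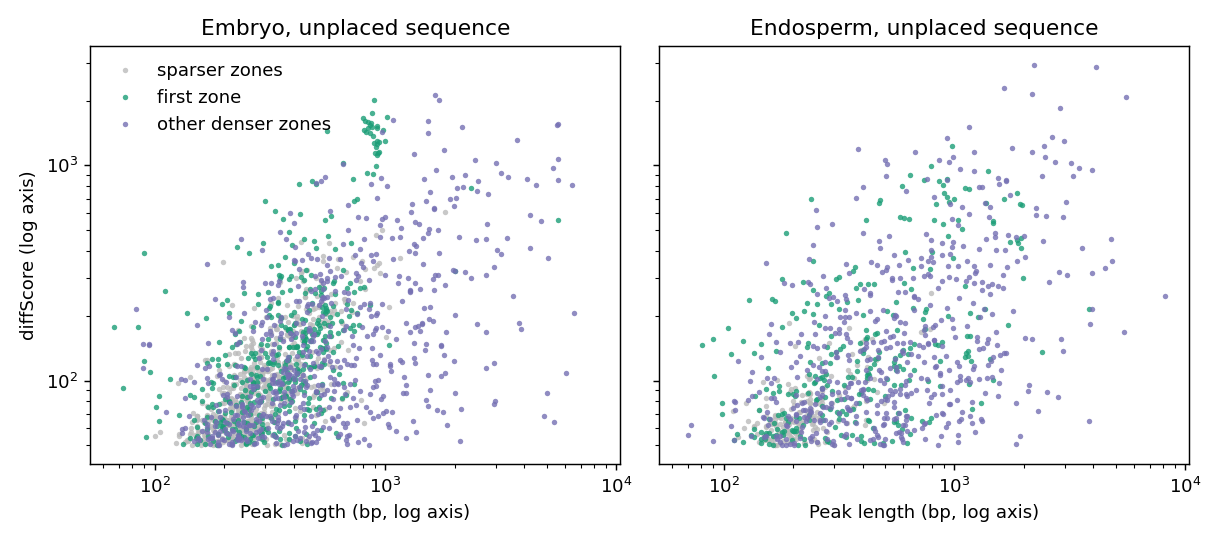
Length in bp (x axis, log scale) and diffScore (y axis, log scale) of each unplaced embryo peak (left) and endosperm peak (right), coloured by zone. In embryo the first zone forms a narrow group of 27 peaks at 797 to 1017 bp with diffScores above 1000, and the peaks of the sparser zones stay below a diffScore of 500 apart from 2 embryo peaks.

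Embryo peaks of that length and score also occurred on chromosomes. Of the 524 embryo peaks with a diffScore of at least 1000 on chromosomes 1 to 10, 367 were 700 to 1100 bp long. The interval of chromosome 6 from 10 to 13 Mb held 111 of the 524, with a median length of 888 bp, and 104 of those were in the same length class. That interval was also the chromosome stretch set beside unplaced sequence for its peak numbers, 967 embryo and 683 endosperm peaks, a ratio of 1.42. There 68.7% of embryo and 86.4% of endosperm peaks overlapped, median lengths were 411 and 495 bp, and median diffScores 134 and 131. A diffScore of at least 500 was reached by 145 of its embryo and 118 of its endosperm peaks, shares above those of unplaced sequence.

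Unplaced sequence and the chromosome 6 interval differed in their long embryo peaks. Embryo peaks of at least 1000 bp made up 9.99% (8.63 to 11.5) on unplaced sequence against 0.103% (0.0183 to 0.583), or 1 peak, in the interval. For endosperm peaks the shares were 18.3% against 15.96% (13.4 to 18.9), with 109 such peaks in the interval, and the intervals overlapped. The sparser zones held 4 such embryo peaks of 587 and 0 such endosperm peaks of 180. Among the denser zones, the first was most like the interval in having few long embryo peaks beside more long endosperm peaks. It held 5 such embryo peaks of 448 and 37 such endosperm peaks of 292. The endosperm peak was the longer one in 64.4% of its pairs, against 66.7% of 444 pairs in the interval. The other denser zones held most of the long embryo peaks. No test was made of these differences, since the interval and the zones were both picked with peak numbers known.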

How the data were processed

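Reads were mapped in the study with Bowtie2 2.0.5 under its default settings, and peaks were detected with MACS. How reads with several equal hits entered the peaks was not tested. The authors deposited 1 peak list per tissue, whose score is the diffScore, at least 50. The lists hold no read numbers, and no input library is named in the study's methods.

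Starts were made 1-based, and the end of the last peak was taken as sequence length. Overlap meant at least 1 bp. Shares and ratios have 95% Wilson intervals, and medians have 95% intervals from the binomial distribution of ranks. Windows were 100 kb with at least 5 peaks. The calculations were done with numpy 2.4.6, scipy 1.17.1, pandas 2.3.3 and Python 3.11.15, plots were drawn with matplotlib 3.10.9, and the code was checked on simulated data and against bedtools 2.31.1. Named peaks were the 10 highest scoring and 5 longest per tissue, the 5 highest scoring pairs and the 5 highest scoring peaks without overlap, of which the text gives some. The 27 peaks of one length class were singled out after their values were seen. The peaks, the chromosome 6 interval and the measures were chosen with earlier results of these data known. Alternatives were other minimum diffScores, joined peaks, other overlap rules, other windows and parts of the sequence.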

Additional observations from a re-analysis of the deposited data

How the results depend on the processing

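No paired analysis was possible because each tissue has 1 library. Of 53 alternatives, 17 stayed inside the 95% interval of the value given (for the covered length ratio, an interval of the same relative width as that of the number ratio, and for window counts, within 1.5 times) and 36 fell outside it; the cause was not tested. With a diffScore of at least 200, the peak number ratio was 1.44, the covered length ratio 1.28 and the embryo overlap 54.9%. With a diffScore of at least 100 and 200, embryo medians were 473 and 679 bp in length, 180.4 and 332.9 in diffScore and 5236 and 8905.5 bp in spacing. Endosperm medians were 631 and 886 bp, 201.9 and 376.2, and 4664.5 and 8042.5 bp. A higher minimum must raise the median diffScore, so that move was fixed in advance. On chromosomes the embryo medians were 370 and 509 bp, 152.55 and 266.79, and 9188 and 29730 bp. The endosperm medians there were 329 and 521 bp, 130.9 and 276.92, and 54989 and 236898 bp. Each kept the same order to the unplaced value as without a minimum. The endosperm overlap at 200 was 81.0% on unplaced sequence and 86.5% on chromosomes, the opposite order to that of all peaks. Joining peaks within 500 bp gave median lengths of 417 bp in embryo and 508 bp in endosperm and spacings of 4234 and 5649.5 bp, and measuring from peak end to peak start gave spacings of 2202 and 2318 bp. With peaks within 200 bp taken as overlapping, the overlaps were 54.5% and 87.2%. Without the 7 endosperm-rich stretches, the ratios were 1.78 in number and 1.52 in length and the embryo overlap 46.95%. Denser zones alone, an alternative chosen after seeing the data, gave 1.28, 1.18 and 67.7%, and sparser zones alone 3.26, 4.42, 21.5% and, for endosperm, 74.4%. Endosperm-rich windows numbered 21 of 140 at 50 kb (15%, against 1.84% on chromosomes), 0 of 36 at 200 kb (against 3 of 10296) and 11 by summed peak length. With 1 library per tissue, differences between the tissues and between the libraries cannot be told apart.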
